A study of Mus musculus with 8 samples.

Results

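The genes described here are 10 that move calcium in and out of the sarcoplasmic reticulum of muscle fibers. They were chosen by name and not by their values, with earlier results of these data known. The 10 are Atp2a1, Atp2a2, Pln, Sln, Casq1, Casq2, Ryr1, Cacna1s, Jph2 and Pvalb. They are 10 of the 24054 genes in the deposited table, and all 10 passed the filter on low values, which asked for a value no lower than 1 in 4 or more of the 8 mice and left 11865 genes. RNA came from soleus (SOL), a small postural muscle with many slow fibers, of 4 MI4KO mice and 4 flox mice. MI4KO mice lack Irf4, which encodes a transcription factor of the interferon regulatory factor family, in muscle fibers, through floxed Irf4 alleles and a Cre recombinase expressed from the Myl1 locus. The flox mice carry the same floxed alleles without Cre, so both groups are floxed at Irf4. All mice were male and of the C57BL/6 strain, and the labels record a high fat diet for both groups. The age of the sequenced mice was not given in the sources used here. Cre from Myl1 acts in skeletal muscle fibers, whereas the RNA is of whole muscle and includes nuclei of vessels, nerve, fat and connective tissue. Each mouse gave 1 stranded poly(A) library, and mice are called 1 to 4 within their group, following the order of their label numbers.

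A nerve impulse that reaches a muscle fiber is read at the triad by the voltage sensor in the surface membrane, which opens the release channel of the sarcoplasmic reticulum, and the calcium that flows out starts contraction. Relaxation follows when the SERCA pumps return calcium to the store, where calsequestrin binds it, while small membrane peptides slow the pumps and parvalbumin takes up calcium in the cytosol of fast fibers. Slow and fast fibers use different members of these families: the SERCA2 pump and cardiac calsequestrin are typical of slow fibers and heart, and SERCA1, skeletal calsequestrin and parvalbumin of fast fibers. Soleus of the mouse holds both kinds of fibers.

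None of the 10 genes passed a test for a difference between MI4KO and flox SOL. The log2 fold changes of MI4KO against flox ran from -0.15 (Casq2) to 0.29 (Pvalb), 4 above 0 and 6 below, with a median of -0.04 beside -0.01 for all genes tested. Of the 10 genes, 0 passed an adjusted p of 0.05, which 0% of the 11865 genes passed by limma, and each had a Benjamini-Hochberg adjusted p of 1.0. At an unadjusted p under 0.05 the count was again 0 of 10, against a background of 3.36% of all genes tested, and asking in addition for a 1.5-fold difference left 0 of 10 against 0.219%. The values of the 2 groups overlapped for every one of the 10 genes, while 2.07% of all genes tested had groups that did not overlap. edgeR and DESeq2 on the recovered reads also passed 0 of the 10 genes, both at an adjusted and at an unadjusted p under 0.05, and over all genes they passed 0 at the adjusted limit and 363 and 248 at the unadjusted one. A p that misses the limit does not show that the levels are equal, so the 95% interval of each difference is given with each gene.

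The values are read counts normalized by TMM, a scaling that centers most genes between libraries, and expressed as CPM, and fold changes are on the log2(value + 1) scale. Recovered totals lay between 13417512 and 16384565 reads per mouse, and the members drew from 87 reads, for Pln in MI4KO mouse 3, to 242080, for Atp2a1 in the same mouse. The deleted gene, Irf4, drew 4 to 23 reads per mouse, with a mean of 1.35 ± 0.451 in the flox group and 0.715 ± 0.324 in the MI4KO group (SD, n = 4 each), and the ranges overlapped. MI4KO mouse 3 stood apart from the others: it held the highest or the lowest value of 44.2% of all genes tested, against 15.9% to 31.9% for the other 7 mice. Its column sum, 1089208, was the highest, 1.088 times the mean of the 8 mice. Its summed fast fiber markers were also the highest (45641 against 35930 to 44904 in the other mice). So were its smooth muscle markers (209.7 against 88.1 to 178.3) and its neutrophil markers (3.39 against 0.125 to 0.375). The marker sums were not rescaled for the column sum. MI4KO mouse 4 had a fast fiber sum of 44425 with a column sum 0.965 times the mean. The lead of MI4KO mouse 3 in fast fiber markers therefore holds for the unscaled sums only. Of the 8 fast fiber markers 4 were highest in MI4KO mouse 3, whereas its Myh4 (55.8) and Actn3 (50.9) were low beside the highest values, 2496 and 333.7. The neutrophil sum came from S100a8 (24 reads) and S100a9 (27 reads), while Elane and Mpo were at 0 in every mouse. Flox mouse 1 had summed liver markers of 153.4 against 6.31 to 15.9, and Myh6, a myosin of heart, was at 1451 in flox mouse 3, 1089 in MI4KO mouse 3 and 1045 in MI4KO mouse 4 against 13.6 to 16.7 in the other 5. The heart markers Myl7 and Nppb were at 0 in every mouse. Slow and fast fiber markers, summed over 8 genes each, ran from 28300 to 38042 and from 35930 to 45641, so both fiber kinds were present in every sample. All 4 endothelial markers had a negative log2 fold change (median -0.24), and their sum ran from 288 to 337 in the flox group and from 213 to 302 in the MI4KO group. All 8 slow fiber markers (median -0.07) and all 4 smooth muscle markers (median -0.22) were also negative. The 4 macrophage markers tested were positive (median 0.09), and the fast fiber markers were 4 above 0 and 4 below. Over all genes tested, 6671 of 11865 were below 0. Without MI4KO mouse 3, the smooth muscle markers Myh11, Acta2, Tagln and Cnn1 were at -0.52, -0.40, -0.33 and -0.29. Of the marker genes, Cdh5 (-0.29) and Kdr (-0.37) of endothelium, Hba-a1 (-0.28) of red blood cells and Cyp2e1 (-0.96) of liver had an unadjusted p under 0.05 by limma, each with an adjusted p of 1.0. The 4 red blood cell markers differed in sign: 3 were negative, while Hbb-bs had a log2 fold change of 1.28 (unadjusted p = 0.0517 by limma). Hbb-bs drew 0 to 106 reads per mouse, and its log2 fold change was 1.895 without MI4KO mouse 3. The part of these differences in the results was not tested. For the 6 members of which MI4KO mouse 3 held the highest or lowest value, the fold change is given with and without it.

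Of the 10 members, 8 had an entry among the RefSeq promoters of GRCm38.p6, of which the bases upstream of the start were used. The promoters of Casq2, Pln, Atp2a1 and Pvalb are shown as examples. Casq2 and Pln were lowest in MI4KO mouse 3, Atp2a1 was highest there, and the values of Pvalb spread most within groups. Ryr1 and Cacna1s were also highest in MI4KO mouse 3, and their promoters are not shown. Each promoter shown is written 5′ to 3′ on the strand of its gene and ends before the first base of the gene in RefSeq and in GENCODE M21. Capitals mark matches, on either strand, to an E-box, CANNTG, the motif of the myogenic bHLH factors, or to a MEF2 site, the motif of the MEF2 factors. The Casq2 window is chr3:102086165-102086414 (plus strand), that of Pln chr10:53337436-53337666 (plus strand), that of Atp2a1 chr7:126463109-126463323 (minus strand) and that of Pvalb chr15:78206401-78206650 (minus strand).
Casq2: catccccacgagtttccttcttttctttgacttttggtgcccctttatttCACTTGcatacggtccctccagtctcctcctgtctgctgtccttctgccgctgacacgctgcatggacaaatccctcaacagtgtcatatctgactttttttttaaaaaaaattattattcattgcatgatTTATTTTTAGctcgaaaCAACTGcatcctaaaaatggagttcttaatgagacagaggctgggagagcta
Pln: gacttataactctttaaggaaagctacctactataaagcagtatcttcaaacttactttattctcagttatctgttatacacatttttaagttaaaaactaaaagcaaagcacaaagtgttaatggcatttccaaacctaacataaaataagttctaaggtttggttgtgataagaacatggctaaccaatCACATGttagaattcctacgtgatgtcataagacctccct
Atp2a1: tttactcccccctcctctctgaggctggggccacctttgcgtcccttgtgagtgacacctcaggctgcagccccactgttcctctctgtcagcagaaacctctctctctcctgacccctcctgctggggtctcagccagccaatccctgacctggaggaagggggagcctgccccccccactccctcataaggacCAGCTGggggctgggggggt
Pvalb: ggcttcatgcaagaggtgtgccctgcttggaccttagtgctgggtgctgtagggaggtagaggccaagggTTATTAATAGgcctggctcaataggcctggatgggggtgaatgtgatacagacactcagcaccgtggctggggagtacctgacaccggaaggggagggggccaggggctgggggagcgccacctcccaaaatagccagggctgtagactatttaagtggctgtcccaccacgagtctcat
In the 250 bases before the RefSeq start, a MEF2 site was found in 2 of the 8 promoters, those of Casq2 (first base at -69) and Pvalb (first base at -180), and in 3.01% of 27025 promoters of the same length. An E-box was found in 6 of the 8 and in 66% of all promoters, with its first base at -55 in Atp2a1 and at -59 in Pln. The motif searched for the interferon regulatory factors, GAAA followed after a gap of 2 bases by GAAA again, was on neither strand of any member, 0 of the 8, and in 3.04% of all promoters, and a CArG box was in 0 of the 8 and in 1.4%. A match is a string of letters and not a bound site, and its absence holds for these windows only.

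Atp2a1 (chromosome 7, 126445858 to 126463108, minus strand in GENCODE M21 on GRCm38) encodes SERCA1, the pump of fast fibers. Its values were 12682, 11539.7, 12526 and 11742 in flox mice 1 to 4 and 11425, 10241, 16093 and 13113 in MI4KO mice 1 to 4. The MI4KO values lay on both sides of the flox range, which was narrow, and mouse 3 was the highest of all 8. Means were 12122 ± 566 in flox and 12718 ± 2540 in MI4KO mice (SD, n = 4 each). Atp2a1 had a log2 fold change of 0.05 (SE 0.14, 95% interval -0.26 to 0.35, unadjusted p = 0.730 by limma), and -0.07 without MI4KO mouse 3.

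Atp2a2 (chromosome 5, 122453513 to 122502225, minus strand), which encodes SERCA2, the pump of slow fibers and heart, was at 7968, 6951, 8169 and 7899 in flox mice and at 8063, 7188, 7386 and 6729.5 in MI4KO mice. The ranges overlapped over most of their length, and the lowest value was in MI4KO mouse 4. Means were 7747 ± 543 and 7342 ± 554 (SD, n = 4 each). Its log2 fold change was -0.08 (SE 0.10, 95% interval -0.30 to 0.15, unadjusted p = 0.465 by limma). Of the 50-base words of the Atp2a2 transcript, 4.58% also occur in Gm30970 and could be shared between both genes in the counting. For Atp2a1 that share was 0.117%, with the third pump gene, Atp2a3, and for the other 8 members it was 0.

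Sln and Pln encode sarcolipin and phospholamban, the small peptides that bind SERCA in the membrane and lower its activity. Sln (chromosome 9, 53850164 to 53854560, plus strand) was at 52.1, 49.2, 62.5 and 71.4 in flox mice and at 71.0, 69.0, 36.1 and 45.3 in MI4KO mice. MI4KO mice 1 and 2 lay at the top of the flox range and MI4KO mice 3 and 4 below it. The means were 58.8 ± 10.2 and 55.4 ± 17.4 (SD, n = 4 each). Sln differed by -0.12 on the log2 scale (SE 0.19, 95% interval -0.54 to 0.29, unadjusted p = 0.531 by limma), and by 0.06 without MI4KO mouse 3.

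Pln (chromosome 10, 53337667 to 53345987, plus strand) was at 18.8, 12.9, 11.8 and 17.9 in flox mice and at 29.1, 18.6, 5.78 and 13.4 in MI4KO mice, so the MI4KO mice held both the highest and the lowest value, 5.03-fold apart. Means were 15.3 ± 3.496 and 16.7 ± 9.79 (SD, n = 4 each). The log2 fold change of Pln was -0.05 (SE 0.34, 95% interval -0.79 to 0.69, unadjusted p = 0.881 by limma). Without MI4KO mouse 3, which had 87 Pln reads, the difference was 0.34 on the same scale. Its spread within groups was wider than that of 99.3% of the genes tested, and that of Sln wider than 95.6%, so the interval of Pln takes in changes from 0.577-fold to 1.61-fold. The exons of Pln overlap Cep85l and Gm47644 on the opposite strand, those of Atp2a1 Rabep2 and those of Casq1 Gm17224. Exons of Atp2a2 overlap Gm43361 on the opposite strand, those of Ryr1 Gm44408 and Gm26604, and those of Cacna1s Gm37759. The library kit keeps the strand, and whether the counting used it was not given in the sources used here.

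**Figure D1:**
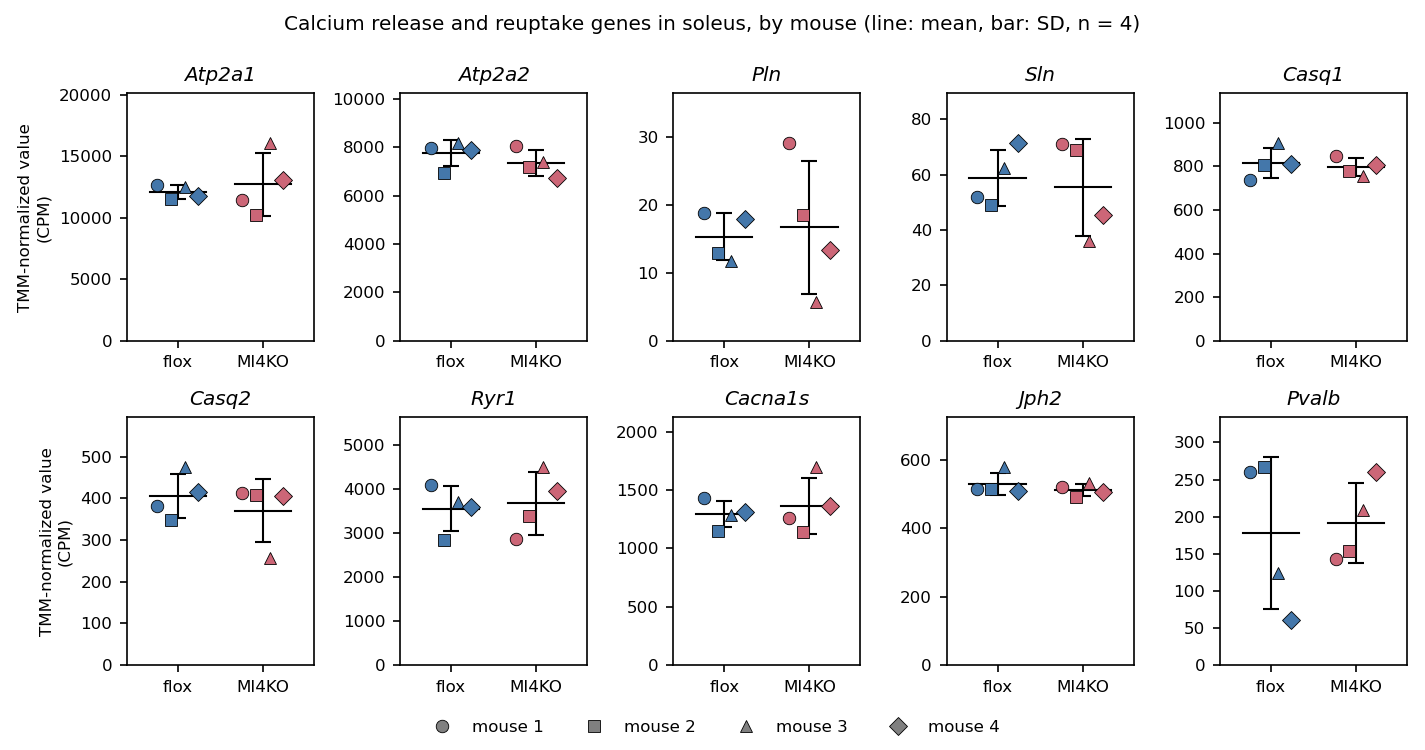
TMM-normalized CPM values (vertical axes, from 0) of the 10 genes in SOL of 4 flox mice (blue) and 4 MI4KO mice (red), with symbols for mice 1 to 4, a line at the mean and a bar of 1 SD. The groups overlap in every panel, and MI4KO mouse 3 (triangle) is the highest red point for Atp2a1, Ryr1, Cacna1s and Jph2 and the lowest for Pln, Sln, Casq1 and Casq2.

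Calsequestrins bind calcium inside the store. Casq1 (chromosome 1, 172209894 to 172219868, minus strand), the skeletal form, was at 736, 807, 907 and 812 in flox mice and at 847, 779, 754 and 805 in MI4KO mice. All 4 MI4KO values lay inside the flox range. Casq1 means were 815 ± 69.96 and 796 ± 39.7 (SD, n = 4 each), a log2 fold change of -0.03 (SE 0.08, 95% interval -0.21 to 0.14, unadjusted p = 0.695 by limma).

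Casq2 (chromosome 3, 102086415 to 102146514, plus strand), the cardiac form, was at 383, 349, 476 and 416 in flox mice and at 413, 408, 256 and 406 in MI4KO mice. In MI4KO mice 1, 2 and 4 the values were close together and near the middle of the flox range, and mouse 3 lay below every other mouse. Means were 406 ± 53.8 and 371 ± 76.4 (SD, n = 4 each). Casq2 differed by -0.15 on the log2 scale (SE 0.15, 95% interval -0.47 to 0.17, unadjusted p = 0.330 by limma), the lowest of the 10 log2 fold changes, and by 0.02 without MI4KO mouse 3, when the ratio of the means was 1.01.

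Ryr1 and Cacna1s encode the release channel of the sarcoplasmic reticulum and the voltage sensor that opens it. Ryr1 (chromosome 7, 29003344 to 29125179, minus strand) was at 4086, 2848, 3713 and 3589 in flox mice and at 2855, 3383, 4505 and 3963 in MI4KO mice. The lowest values of both groups were nearly the same, and MI4KO mouse 3 was the highest of all. Ryr1 means were 3559 ± 519 and 3676 ± 714 (SD, n = 4 each). Its log2 fold change was 0.04 (SE 0.15, 95% interval -0.28 to 0.36, unadjusted p = 0.799 by limma), and -0.07 without MI4KO mouse 3.

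Cacna1s (chromosome 1, 136052750 to 136119822, plus strand) was at 1429.7, 1153, 1289.9 and 1310.2 in flox mice and at 1260.3, 1142, 1699.6 and 1362 in MI4KO mice. MI4KO mouse 3 was above every other mouse, as it was for Ryr1 and Atp2a1. For Cacna1s, MI4KO mice 1 and 4 lay inside the flox range and mouse 2 just below it. Cacna1s means were 1296 ± 113 and 1366 ± 240 (SD, n = 4 each), and the log2 fold change was 0.06 (SE 0.12, 95% interval -0.19 to 0.32, unadjusted p = 0.588 by limma), or -0.05 without MI4KO mouse 3.

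Jph2 (chromosome 2, 163336242 to 163397993, minus strand) encodes junctophilin 2, which ties the surface membrane to the sarcoplasmic reticulum. It was at 513, 515, 579 and 509 in flox mice and at 521, 492, 533 and 505 in MI4KO mice. It was the steadiest of the 10 genes, 1.18-fold from lowest to highest mouse, with a narrower spread within groups than all but 4.69% of the genes tested. Flox mouse 3 stood above the rest. Jph2 means were 529 ± 33.4 and 513 ± 18.0 (SD, n = 4 each), a log2 fold change of -0.04 (SE 0.07, 95% interval -0.20 to 0.11, unadjusted p = 0.542 by limma).

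Pvalb (chromosome 15, 78191114 to 78206400, minus strand) encodes parvalbumin, the cytosolic calcium buffer of fast fibers. It was at 260.7, 267, 124 and 60.9 in flox mice and at 143, 154, 209 and 259.7 in MI4KO mice. Flox mice 1 and 2 and MI4KO mouse 4 were alike and high, and flox mouse 4 was the lowest, so the flox range enclosed all MI4KO values. The spread within groups was wider than that of 99.6% of the genes tested. Pvalb means were 178 ± 102 and 191 ± 54.0 (SD, n = 4 each). The log2 fold change of Pvalb was 0.29 (SE 0.38, 95% interval -0.53 to 1.12, unadjusted p = 0.458 by limma), and -0.14 without flox mouse 4. Of the 10 intervals only those of Pln and Pvalb reached beyond a 1.5-fold change in either direction. Exact two-sided permutation tests of the 8 values of each gene gave p from 0.343 (Atp2a2) to 0.971 (Pln), where 4 mice against 4 cannot go below 0.0286.

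**Figure D2:**
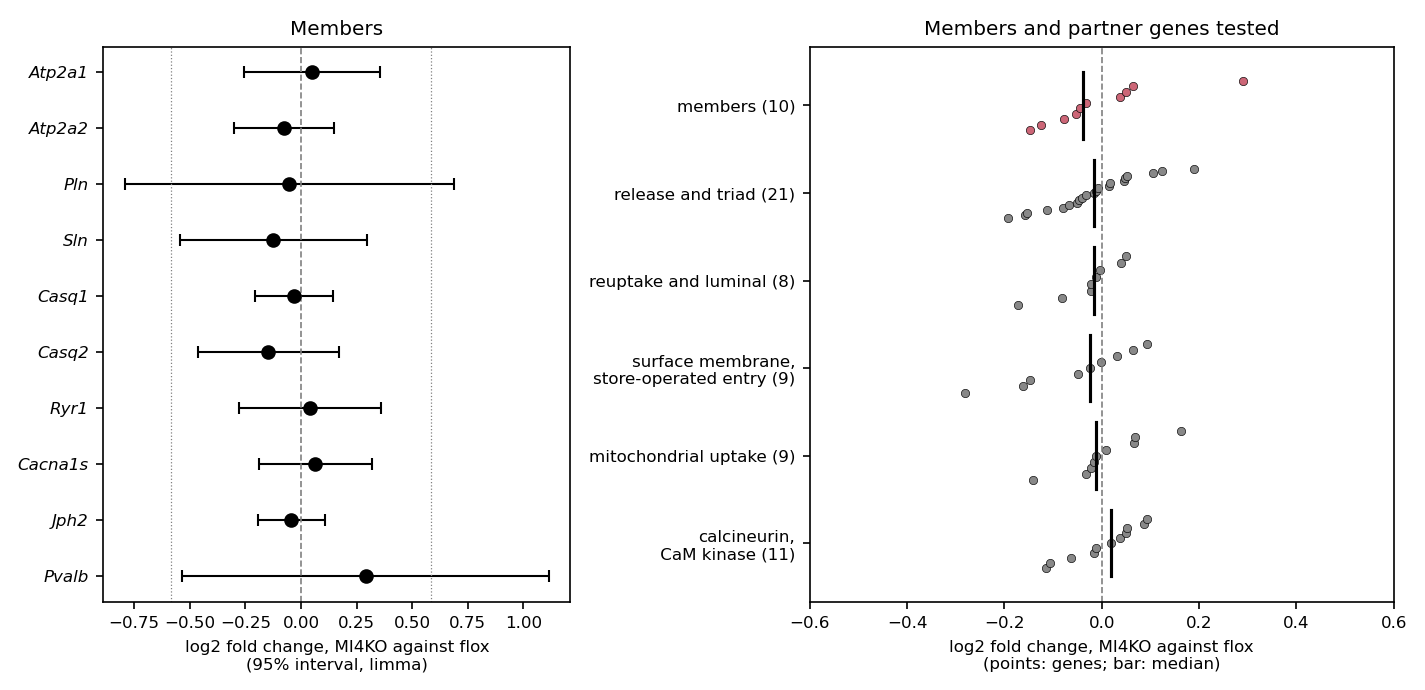
Left, log2 fold change of MI4KO against flox (horizontal axis) for the 10 genes with 95% intervals from limma, dotted lines at a 1.5-fold change. Right, the same quantity for single genes (points) of the 10 members and of 5 lists of partner genes, with the number tested in brackets and a bar at the median. All 10 intervals include 0, and the medians of the lists lie between -0.04 and 0.02.

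Levels of different genes are compared per kilobase (kb) of the longest coding transcript in GENCODE M21, whose length may differ from the one used in the counting. The flox means of this value per kb fell from Atp2a1 (3486 ± 163) and Atp2a2 (1727 ± 121) over Casq1 (441 ± 37.9), Ryr1 (232 ± 33.8), Cacna1s (207 ± 18.1), Pvalb (182 ± 105), Casq2 (159 ± 21.04) and Jph2 (126 ± 7.93) to Sln (44.6 ± 7.72) and Pln (6.57 ± 1.498; SD, n = 4 each). Of the 9 steps in this order, 5 separated genes whose flox ranges did not overlap: Atp2a1 was 2.02-fold above Atp2a2, Atp2a2 3.93-fold above Casq1, Casq1 1.94-fold above Ryr1, Jph2 2.87-fold above Sln and Sln 7.04-fold above Pln. The steps from Ryr1 over Cacna1s, Pvalb and Casq2 to Jph2 joined genes with overlapping flox ranges. With the shortest coding transcript, 531 bases for Pln in place of 2334, the flox mean of Pln was 28.9 per kb. Pln was still the lowest but much nearer to Sln (44.6), so the 7.04-fold step holds for the longest transcript only.

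The proportions of pump and store isoforms overlapped between the groups. Atp2a2 made up 33.1% ± 1.06 of the summed Atp2a1 and Atp2a2 values per kb in flox mice, from 31.8% to 34.3%. In MI4KO mice it was 35.4%, 35.2%, 26.2% and 28.5%, with a mean of 31.3% ± 4.68 (SD, n = 4 each), so mice 1 and 2 lay above the flox range and mice 3 and 4 below it. Casq2 made up 26.4% ± 1.73 of both calsequestrins in flox mice and 24.99% ± 3.55 in MI4KO mice. That share was 19.7% in MI4KO mouse 3 and from 23.8% to 27.5% in the other 7. Pln made up 13.0% ± 3.01 of Pln and Sln in flox mice and 13.6% ± 4.31 in MI4KO mice, with the lowest value, 8.30%, again in MI4KO mouse 3 and from 9.62% to 18.8% in the other 7. There were 119 ± 18.9 units of pump RNA per unit of Sln RNA in flox mice and 141 ± 65.9 in MI4KO mice, where mouse 3 reached 229 and the other 7 mice lay between 86.8 and 153. On the release side, there were 1.11 ± 0.0766 units of Ryr1 per unit of Cacna1s in flox and 1.098 ± 0.129 in MI4KO mice. The Pln share rests on the longest Pln transcript, 2334 bases, and would be larger with the shortest, 531 bases. These proportions are descriptions of single mice and were not tested.

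**Figure D3:**
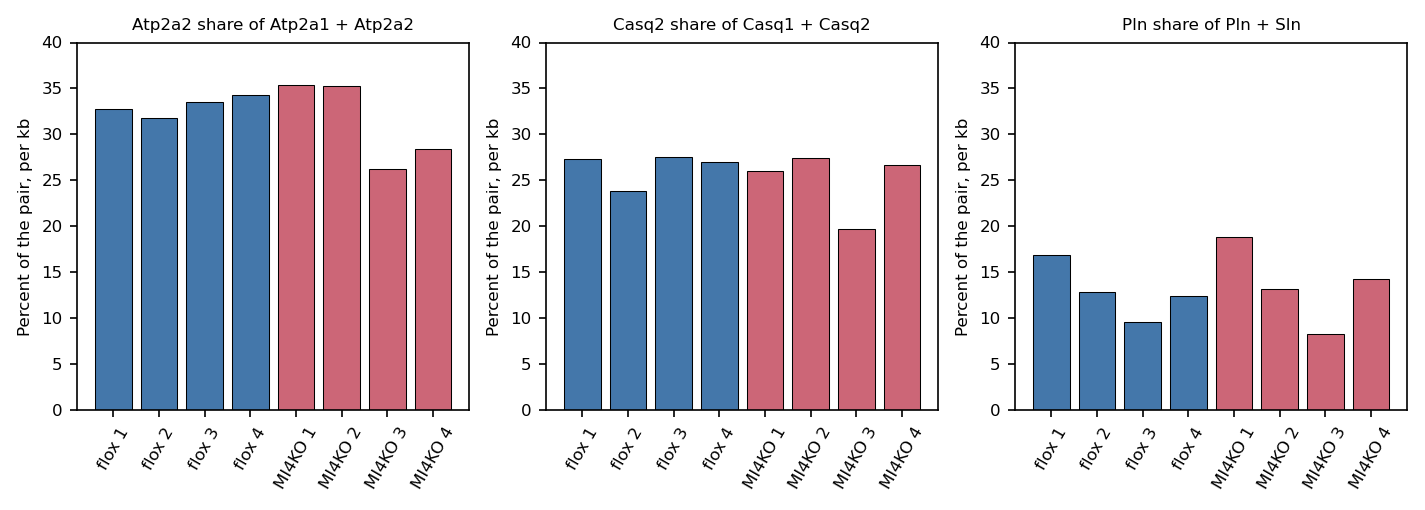
Share (percent, from 0) of Atp2a2 in Atp2a1 plus Atp2a2, of Casq2 in Casq1 plus Casq2 and of Pln in Pln plus Sln, from values per kb, with 1 bar per mouse, blue for flox and red for MI4KO. MI4KO mouse 3 has the lowest bar in all 3 panels, 26.2%, 19.7% and 8.30%. Values are per kb of the longest coding transcript, and the Pln share would be larger with the shortest Pln transcript.

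Mouse to mouse, the members moved in opposite directions in MI4KO mouse 3. It held the highest value of Atp2a1, Ryr1 and Cacna1s and the lowest of Pln, Sln and Casq2, 6 of the 10 genes, where any other mouse was the extreme for 1 to 4. Its deviations from the mean of the 8 mice, on the log2 scale, were 0.39 for Atp2a1, 0.36 for Cacna1s, 0.33 for Ryr1, -0.58 for Casq2, -0.61 for Sln and -1.22 for Pln. The mean absolute deviation over the 10 genes was 0.395 in this mouse and 0.158 to 0.238 in the others. This mouse was also an extreme for 21 of 58 partner genes, against 8 to 27 for the others, and for 44.2% of all genes tested. Flox mouse 3 was the highest for Atp2a2, Casq1, Casq2 and Jph2.

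**Figure D4:**
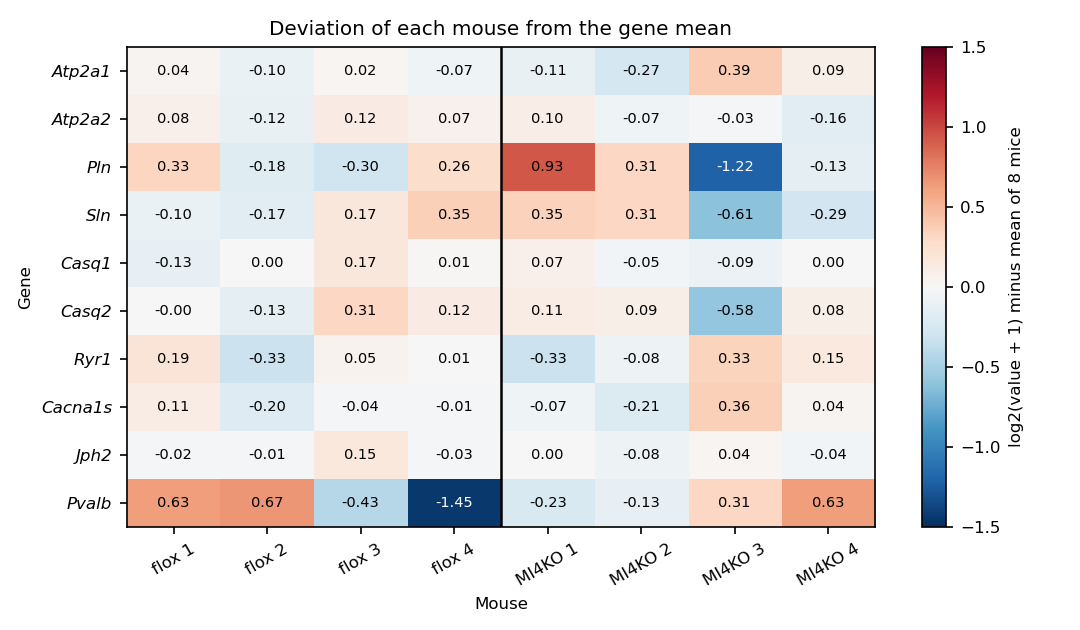
Deviation of each mouse (columns, flox left and MI4KO right of the line) from the gene mean of 8 mice on the log2(value + 1) scale (color and printed value) for the 10 genes (rows). The column of MI4KO mouse 3 runs from -1.22 (Pln) to 0.39 (Atp2a1), and the row of Pvalb from -1.45 (flox mouse 4) to 0.67 (flox mouse 2).

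Correlations over the 8 mice, on log2(value + 1), were computed for the 45 pairs of members and for 50 pairs of a member and a fiber type gene, and are descriptions, since the 8 points share their muscle, library and depth between both genes. Of the 45 pairs, 8 had an absolute Pearson r of at least 0.7, and 4 had one without MI4KO mouse 3. Atp2a1 and Cacna1s had the highest r, 0.94 (Spearman rho 0.929), which was 0.83 without MI4KO mouse 3 and 0.733 without the 2 mice farthest from the median of Atp2a1. Ryr1 and Cacna1s had r = 0.825 (rho 0.905), with 0.751 without MI4KO mouse 3 and 0.969 without the 2 mice farthest from the median of Ryr1. Atp2a1 and Sln had r = -0.828 (rho -0.714), with -0.619 without MI4KO mouse 3. Atp2a1 and Pln had r = -0.785 (rho -0.548), with -0.41 without that mouse, so this relation rested largely on it. Atp2a1 and Atp2a2, the pumps of fast and slow fibers, had r = -0.04 (rho -0.10). With Myh1, a fast myosin, r was 0.879 for Atp2a1 and 0.853 for Cacna1s, and 0.852 and 0.788 without MI4KO mouse 3. With the fast myosins Myh2 and Myh4, r of Atp2a1 was 0.187 and -0.304. Atp2a2 had r = 0.769 with Myh7, a slow myosin (0.792 without MI4KO mouse 3).

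Pvalb varied from mouse to mouse together with Myh4 and Actn3, while its coefficients with the other fast myosins examined were 0.171 for Myh1 (rho -0.048) and -0.355 for Myh2 (rho -0.381). Myh4, the myosin of type IIB fibers, was at 1807, 2496, 34.5 and 35.4 in flox mice and at 278, 831, 55.8 and 2174 in MI4KO mice. The 3 mice with the most Myh4 were the 3 with the most Pvalb, and in flox mice 3 and 4 both genes were low. Pearson r of Pvalb over the 8 mice was 0.753 with Myh4 (rho 0.881) and 0.84 with Actn3 (rho 0.905), which encodes the actinin of fast fibers, and without the 2 mice farthest from the median of Pvalb it was 0.635 and 0.75. MI4KO mouse 3, with high Pvalb beside low Myh4, was the exception, and without it the coefficients were 0.902 and 0.93. With Myh7, the slow myosin, the coefficient of Pvalb was -0.753 (rho -0.595), and with Sln -0.702 (rho -0.714). The summed neuron markers, since some neurons also use parvalbumin, were from 0.145 to 0.947 in all mice. In whole muscle, fewer fibers of a kind and less RNA per fiber cannot be told apart.

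**Figure D5:**
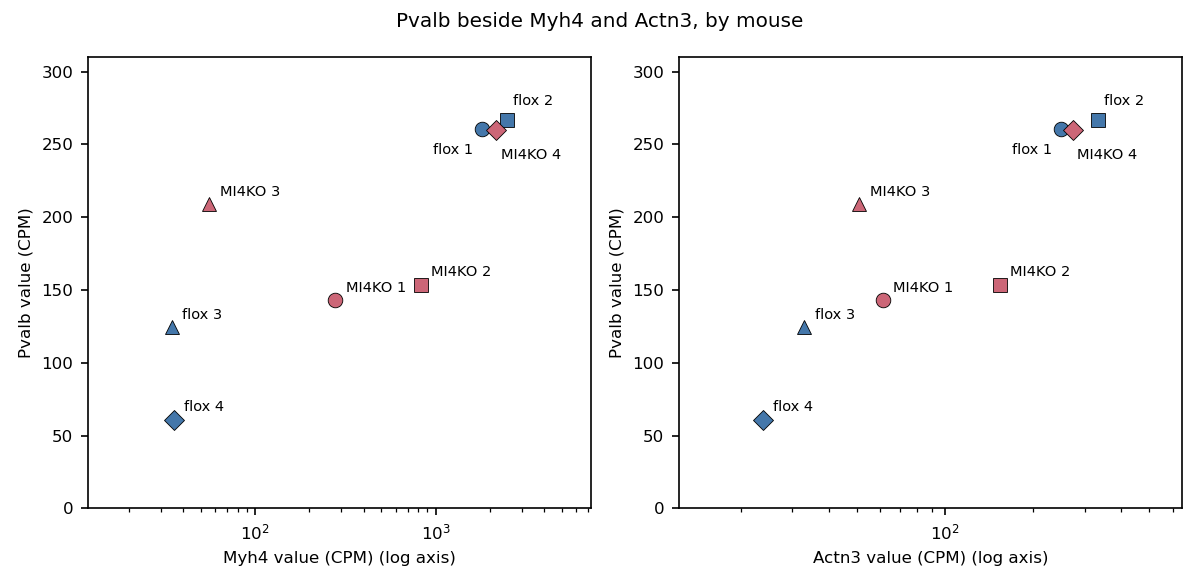
Pvalb value in TMM-normalized CPM (vertical axis, from 0) against those of Myh4 (left) and Actn3 (right) on log axes, 1 point per mouse, blue for flox and red for MI4KO. Flox mice 1 and 2 and MI4KO mouse 4 sit together at the top right of both panels, with Pvalb between 259.7 and 267, and MI4KO mouse 3 lies above the other mice of like Myh4.

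The genes most like each of 4 members over the 8 mice, by Pearson r among 11864 others, were as follows. For Atp2a1 they were Pygm (r = 0.989), the glycogen phosphorylase of muscle, Pgm2 (0.986) and Phf2 (0.977), and without the 2 farthest mice the coefficients were 0.929, 0.915 and 0.864. For Atp2a2 they were Gtf2f1 (0.947), Snupn (0.936) and AW011738 (0.936). For Pvalb they were Mybpc2 (0.965), the fast form of myosin binding protein C, Fam57b (0.960) and 2310081J21Rik (0.954). For Sln they were Mettl15 (0.980), Mdp1 (0.965) and Gzf1 (0.959). These are the highest of 11864 coefficients over 8 points each and carry no test.

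The partner genes of calcium handling gave 1 call at the loosest limit. Of 65 listed, 64 had a row in the table and 58 passed the filter. Their log2 fold changes ran from -0.28 (Slc8a3) to 0.19 (S100a1) with a median of -0.01. An adjusted p under 0.05 by limma was reached by 0 of the 58, and by 0% of all genes tested. Groups that did not overlap were found for 0 of the 58, against 2.07% of all genes tested. At an unadjusted p under 0.05, 1 of the 58 was lower in MI4KO mice, where 2.95% of all genes tested were, and 0 were higher, where 0.413% were. That gene was Cacng1, a subunit of the voltage sensor complex, at 88.2, 78.5, 93.3 and 85.3 in flox mice and 74.9, 66.0, 82.3 and 78.7 in MI4KO mice. The groups overlapped, with a log2 fold change of -0.19 (SE 0.08, unadjusted p = 0.0403 and adjusted p = 1.0 by limma). Cacng1 was at -0.24 without MI4KO mouse 3. Without that mouse, 2 of the 58 partners were lower at an unadjusted p under 0.05, Cacng1 and Atp2b4, a calcium pump of the surface membrane (-0.26), where 4.56% of all genes were, and 0 were higher.

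By role, the 21 tested partners of release and the triad had a median log2 fold change of -0.02, with S100a1, a calcium-binding regulator of Ryr1, at the upper end (147 ± 13.5 in flox and 169 ± 27.1 in MI4KO mice, log2 fold change 0.19, SE 0.11). S100a1 was highest in MI4KO mouse 3, at 207, and its log2 fold change without that mouse was 0.088. Jph1, the other junctophilin of skeletal muscle, had a log2 fold change of 0.05 (187 ± 25.1 and 193 ± 14.3), and -0.0040 without MI4KO mouse 3. Ryr2, the channel of heart, had from 0 to 18 reads per mouse and was not tested, and Ryr3 had from 5 to 19 reads. The 8 partners of reuptake and the store lumen had a median of -0.02, from -0.17 for Atp2a3, the third SERCA gene (21.9 ± 1.83 and 19.4 ± 2.23), to 0.05 for Calu, a luminal calcium-binding protein (172 ± 4.71 and 179 ± 25.1). Calu was lowest in MI4KO mouse 3, without which it was at 0.13. Myoregulin (2310015B20Rik in the table) and another-regulin (1810037I17Rik), peptides of the same family as Sln and Pln, were at 9.16 ± 2.05 and 23.7 ± 1.97 in flox mice and at 8.59 ± 1.78 and 23.3 ± 2.66 in MI4KO mice.

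The 9 tested partners of the surface membrane and store-operated entry had a median log2 fold change of -0.02, from -0.28 for Slc8a3, a sodium-calcium exchanger (46.4 ± 7.95 and 38.2 ± 7.49), to 0.09 for Atp2b3, a calcium pump of the surface membrane (7.94 ± 0.595 and 8.71 ± 2.20). Slc8a3 was lowest in MI4KO mouse 3, at 28.3 against 37.0 to 55.9 in the other 7, and its log2 fold change without that mouse was -0.15. Atp2b3 was highest there, and without that mouse it was at -0.0053. Among the partners under the filter was Atp2b2, another such pump, singled out after its values were seen: its flox values ran from 0.947 to 1.81 and its MI4KO values from 0.598 to 0.776, with 9 to 29 reads, and it was not tested. The 9 genes of mitochondrial calcium uptake had a median of -0.01, from -0.14 for Slc8b1, the mitochondrial exchanger, to 0.16 for Micu3, a regulator of the uniporter. The 11 genes of the calcineurin and CaM kinase pathways, which read the calcium signal, had a median of 0.02, from -0.11 for Camk2a to 0.09 for Rcan2. Rcan2 was highest in MI4KO mouse 3, and without it its log2 fold change was 0.049.

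The numbers in the labels fall into 2 ranges, 1 flox and 2 MI4KO mice in the first and 3 flox and 2 MI4KO mice in the second, which the labels do not call a batch. Within the ranges the difference of MI4KO against flox, on the log2 scale, had opposite signs for 8 of the 10 genes, such as 0.42 and -0.57 for Sln, -0.23 and 0.28 for Atp2a1 and -0.81 and 0.87 for Pvalb. It was negative in both for Atp2a2 (-0.07 and -0.12) and Jph2 (-0.02 and -0.04). With 1 flox mouse in the first range, flox mouse 1, no test was made within it. MI4KO mouse 3 was in the second range. How many of all genes tested had opposite signs was not computed, so the 8 of 10 has no background beside it.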

How the data were processed

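SOL RNA from 4 MI4KO and 4 flox mice was sequenced as single reads of 50 bases. Per the labels and the study's methods, the authors used bcl2fastq 2.17, mapped reads to UCSC transcripts (mm10) with Bowtie2 2.1.0, estimated expression with RSEM 1.2.15 and normalized by TMM. In the deposited table, the signal of each gene and mouse is a CPM scaled in this way. Their columns of fold change, p-value and FDR were not used.

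Each value was a whole multiple of the step of its mouse (100% within a tolerance of 0.01), and these whole reads were recovered. A floor of 3 reads, a value of 0.181 to 0.225, covers counting error only, whereas the 95% intervals come from the spread between mice. limma 3.58.1 (R 4.3.3) was fitted to log2(value + 1) with a mean-variance trend over the 11865 genes that reached 1 in 4 or more mice. edgeR 4.0.16 and DESeq2 1.42.0 on the recovered reads were alternatives, as were other pseudocounts, filters, scalings, limma settings, the number range as a covariate and each mouse left out. Exact permutation tests used scipy 1.17.1. Comparing the reads of any 2 mice over genes gave a chi-square per degree of freedom between 6.06 and 52.4, so each counted as 1 sample. The fit was tested on simulated data.

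The members and lists were chosen with earlier results of these data known. The text names all members, the ends of each partner list, partners at an unadjusted p under 0.05 or of a member's family, the markers, and the 3 genes most like each of 4 members. Of the markers, Ly6g and of the partners Strit1 had no row. Marker lists whose sums are not given above had these summed values over the 8 mice: macrophage 18.1 to 24.0, adipocyte 177.5 to 289.3, Schwann 85.9 to 122.4 and red blood cell 196.4 to 324.0. The endothelial sums, 212.8 to 337.4 over the 8 mice, are given by group above. Promoters are from RefSeq GRCm38.p6 and positions from GENCODE M21.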

Additional observations from a re-analysis of the deposited data

Results flagged for a closer look

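Gaps and ranges were measured on the log2(value + 1) scale, while the values printed below are TMM-normalized CPM. Among the 20 sets of 4 values (10 genes in 2 groups), 2 had a value whose gap to its nearest neighbor took up more of the range of its group than Dixon's 95% limit for 4 values. Chance alone gives about 1 such set in 20. Casq2 was lowest in MI4KO mouse 3, at 256.4, where the gap was 0.963 of the range and the other 3 MI4KO mice lay between 406 and 413. Jph2 was highest in flox mouse 3, at 579.2, where the gap was 0.908 of the range and the other 3 flox mice lay between 509 and 515.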

How the results depend on the processing

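None of the 10 genes was called at an adjusted p under 0.05 under any of the 19 alternatives, and the lowest adjusted p of a member was 0.954. The count of all genes at 1.5-fold and an unadjusted p under 0.05, 26 as reported, was 71 with a pseudocount of 0.1, 5 with a pseudocount of 5, 9 with genes asked to reach 10 in 4 or more mice, 13 with robust limma, 65 with edgeR and 51 with DESeq2. It ran from 18 to 57 with a mouse left out, and was 57 without MI4KO mouse 4. The count at an adjusted p under 0.05 ran from 0 to 1 with a mouse left out (1 without MI4KO mouse 2). The sign of Atp2a2 was the same under all 19, and the signs of the other 9 turned under at least 1. With equal column sums Casq1 was at 0.012 and Jph2 at 0.00038 on the log2 scale, and Pln was at 0.14 with edgeR and 0.16 with DESeq2. With a mouse left out, log2 fold changes ran from -0.071 to 0.15 for Atp2a1, -0.13 to -0.037 for Atp2a2, -0.37 to 0.34 for Pln, -0.26 to 0.058 for Sln, -0.080 to 0.020 for Casq1, -0.22 to 0.020 for Casq2, -0.066 to 0.15 for Ryr1, -0.046 to 0.15 for Cacna1s, -0.063 to 5.1e-05 for Jph2 and -0.14 to 0.56 for Pvalb. The cause of these turns was not tested. No paired analysis was possible because the labels give the groups no shared replicate numbers. Pln had 87 to 401 reads per mouse, the other 9 members 543 or more, and Irf4 4 to 23.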
